A study of Mus musculus with 4 samples.

Results

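The genes described here are 10 CC chemokine ligands, Ccl2, Ccl7, Ccl12, Ccl8, Ccl3, Ccl4, Ccl6, Ccl9, Ccl17 and Ccl24, out of 31053 genes in the count matrices. They were chosen by gene symbol, each symbol matched 1 row, and all 10 had counts in every library. The cells came from hearts of CSF1R-EGFP mice aged 12 to 16 weeks and were sorted as EGFP positive and Ly6G negative. The Csf1r promoter drives EGFP in this reporter, so monocytes, dendritic cells and some granulocytes can be sorted beside macrophages. The baseline group is 1 library made from 3 pooled hearts that had no surgery. The infarct group is 3 libraries, each from 1 heart taken 7 days after ligation of the left coronary artery, and the remote zone of those hearts was cut away before digestion.

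CC chemokines are small secreted proteins that steer leukocytes through G protein-coupled receptors and are held on the extracellular matrix. Ccl2, Ccl7, Ccl12 and Ccl8 form the monocyte chemoattractant group, and Ccr2 is the best known receptor of Ccl2, Ccl7 and Ccl12. No receptor is assigned to mouse Ccl8 here. Ccl3 and Ccl4 are the macrophage inflammatory proteins, and Ccl3 and the rodent ligands Ccl6 and Ccl9 act on Ccr1. Ccl17 is the dendritic cell ligand of Ccr4, and Ccl24 is an eotaxin that acts on Ccr3 of eosinophils. In the infarcted heart, Ccr2-dependent recruitment of monocytes is the best studied of these routes.

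On the GRCm38 assembly, 8 of the 10 genes lie on chromosome 11 in a pair of clusters. Ccl2 (chr11:82035571-82037453), Ccl7, Ccl12 and Ccl8 (chr11:82115185-82116799) stand on the plus strand within 81.2 kb. Ccl9 (chr11:83572919-83578636), Ccl6 and Ccl3 on the minus strand and Ccl4 (chr11:83662584-83664683) on the plus strand lie within 91.8 kb. Ccl24 is on chromosome 5 and Ccl17 on chromosome 8. All are annotated as protein coding, and their identifiers in the files, such as ENSMUSG00000009185 for Ccl8, were those of the annotation.

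RefSeq promoter sequences on GRCm38.p6, from 250 bases before to 50 bases after the gene start, were at hand for 6 of the genes. Those of 4 are printed, as a pair of neighbours from each cluster. Over cells of the macrophage gates, Ccl6 and Ccl9 correlated at 0.54 in infarcts and 0.39 at baseline. For Ccl12 and Ccl8 the values were only 0.15 and 0.04. Ccl12 (chr11:82101595-82101894) and Ccl8 (chr11:82114935-82115234) are read on the plus strand, and Ccl6 (chr11:83593038-83593337) and Ccl9 (chr11:83578587-83578886) on the minus strand. Capitals mark matches on either strand to TATAAA, to the AP-1 motif TGANTCA or to the NF-kB motif.
Ccl12: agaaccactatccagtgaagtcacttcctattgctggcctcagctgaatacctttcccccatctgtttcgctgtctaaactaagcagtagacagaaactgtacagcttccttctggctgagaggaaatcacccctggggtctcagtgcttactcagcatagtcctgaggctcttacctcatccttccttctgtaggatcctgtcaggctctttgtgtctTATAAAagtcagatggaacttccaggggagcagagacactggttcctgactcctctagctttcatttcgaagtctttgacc
Ccl8: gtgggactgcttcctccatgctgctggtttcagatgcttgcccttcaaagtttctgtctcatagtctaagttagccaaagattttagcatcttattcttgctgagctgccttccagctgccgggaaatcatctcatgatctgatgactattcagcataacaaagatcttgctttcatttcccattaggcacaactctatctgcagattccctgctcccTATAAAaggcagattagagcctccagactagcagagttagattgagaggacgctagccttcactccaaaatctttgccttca
Ccl6: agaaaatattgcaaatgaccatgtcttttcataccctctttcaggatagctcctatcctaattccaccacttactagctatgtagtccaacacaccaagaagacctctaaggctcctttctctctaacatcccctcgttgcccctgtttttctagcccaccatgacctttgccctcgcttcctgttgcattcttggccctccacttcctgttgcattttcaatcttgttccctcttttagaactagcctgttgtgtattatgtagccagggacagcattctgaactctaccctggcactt
Ccl9: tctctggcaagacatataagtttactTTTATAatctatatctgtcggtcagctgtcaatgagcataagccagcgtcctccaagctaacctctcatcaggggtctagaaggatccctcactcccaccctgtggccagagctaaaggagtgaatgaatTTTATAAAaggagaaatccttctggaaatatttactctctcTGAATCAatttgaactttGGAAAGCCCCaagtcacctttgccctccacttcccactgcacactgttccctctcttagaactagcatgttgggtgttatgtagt
TATAAA stood 31 bases before the start of Ccl12 and 32 bases before that of Ccl8, and 13.6% of 32851 promoters hold it at any place. Ccl9 held 3 TATAAA matches, 2 of them overlapping each other, 1 NF-kB match and 1 AP-1 match, motifs found in 8.46% and 7.81% of promoters. The NF-kB and AP-1 matches do not overlap each other or a TATAAA match. Ccl17 held a match to the STAT motif TTCNNNGAA (8.30% of promoters), no match to any motif stood in Ccl3 or Ccl6, and the interferon-stimulated response element (3.44% of promoters), searched by its consensus, was in none of the 6. Ccl6 and Ccl9 shared an identical stretch of 13 bases, against at most 11 bases for the other pairs. These are matches of letters only.

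The libraries held 10117 to 10782 cells after filtering, with medians of 6399 UMIs (unique molecular identifiers, each a counted RNA molecule) per cell at baseline and 8470 to 8557 in infarcts. Pairs of libraries shared 26 to 34 cell barcodes. Cells were placed in marker gates, defined by how many markers of a list a cell held, with none of the markers a chemokine or a CC receptor. Of 19 gates, 14 held at least 20 cells in every infarct library and were tested. Levels are given as CPM, the UMIs of a gene in every 1000000 non-mitochondrial UMIs of a gate and library, and infarct means carry the SD of 3 libraries. Intervals are exact Poisson 95% intervals and cover counting error only. Fewer cells of a type and less RNA per cell cannot be told apart in levels summed over all cells. No value of one gene is compared with that of another gene as an amount.

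In all cells summed, Ccl8 was higher in the 3 infarct libraries than at baseline, and Ccl24 and Ccl17 were lower. The other 7 ligands differed from baseline by less than 2-fold. With 1 baseline library there is no test, and a gene is counted only if all 3 infarct libraries lay on the same side and the mean was at least 2-fold away. By this rule 1 of 10 ligands was higher, against 2.02% of the 7876 genes with at least 10 CPM, and 2 of 10 were lower, against 6.02%. The median log2 ratio over all those genes was -0.19 and became 0.10 when the libraries were scaled by TMM, which left the 3 calls as they were.

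**Figure D1:**
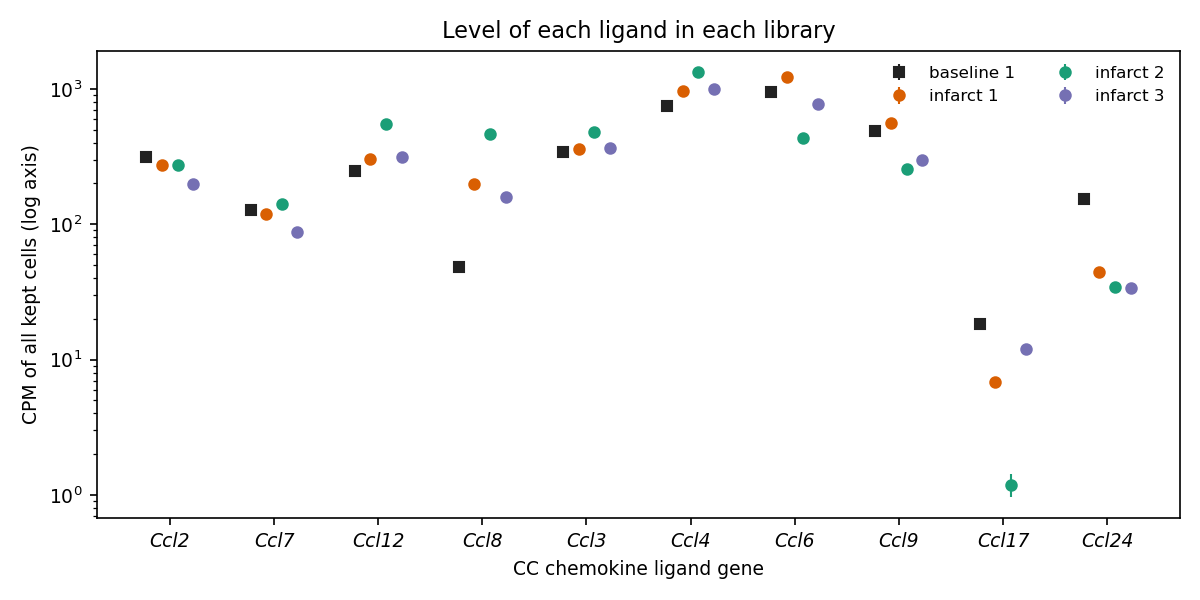
Level of the 10 ligands in the 4 libraries, as CPM of all kept cells on a log axis, with exact Poisson 95% intervals that are mostly smaller than the symbols. Ccl8 lies above baseline (black squares) and Ccl24 and Ccl17 below it in all 3 infarct libraries (coloured circles).

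Ccl8 stood at 48.5 CPM at baseline (interval 46.9 to 50.2) and at 199.3, 466.5 and 158.8 CPM in the infarct libraries. Infarct 2 had the highest value, and the lowest infarct value was still above baseline. The log2 ratio of the means was 2.50, and 1.88 without infarct 2. Ccl24 stood at 152.8 CPM at baseline (149.9 to 155.8) and at 44.1, 34.2 and 34.0 CPM in infarcts, a log2 ratio of -2.03. Those 3 libraries lay close together and far below baseline. Ccl17 stood at 18.4 CPM at baseline (17.4 to 19.5) and at 6.81, 1.18 and 12.1 CPM in infarcts, a log2 ratio of -1.46. Ccl17 counts sat in very few cells, 71 at baseline and 31 to 90 in infarcts. Its log2 ratio was -0.96 without infarct 2 and -2.20 without infarct 3, and it no longer passed the rule without infarct 2 or when cells were thinned to 2000 UMIs each or weighted equally.

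The remaining ligands were closer to baseline. Ccl12 read 248.8 CPM at baseline and 300.9, 554.2 and 315.7 CPM in infarcts, and Ccl4 read 750.5 and then 961.4, 1325 and 994.0 CPM. For both, every infarct library lay above baseline. Ccl3 read 343.1 CPM at baseline and 361.8, 480.7 and 367.7 CPM in infarcts, which were again all higher but by a smaller margin. Ccl2 read 314.3 CPM and then 273.6, 274.0 and 198.2 CPM, all below baseline. Ccl7 (127.0 CPM, then 119.7, 141.5 and 87.2), Ccl6 (940.0 CPM, then 1224, 436.3 and 767.1) and Ccl9 (491.8 CPM, then 561.2, 257.6 and 297.8) had infarct libraries on both sides of baseline. The sum of the 10 ligands was 3435 CPM at baseline and 3752 ± 452 CPM (SD, n = 3) in infarcts.

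The mix of cells differed between the groups. The resident-like gate (Lyve1, Cd163, Timd4, Folr2 and others) took 27.5% of baseline cells and 1.06 ± 0.11% of infarct cells, and the reparative-like gate (Gpnmb, Spp1, Trem2 and others) took 0.99% and 27.4 ± 4.5%. MHC-II-high macrophages took 30.0% and 24.9 ± 0.3%. To set the mix apart from the levels, the baseline level of each gate was combined with the infarct mix, and the reverse. For Ccl8, the infarct mix with baseline levels gave 26.6 ± 5.9 CPM, below the baseline value. The baseline mix with infarct levels gave 437.8 ± 97.3 CPM. Both steps lowered Ccl24, to 64.5 ± 7.0 CPM with the infarct mix alone and to 48.7 ± 14.8 CPM with infarct levels alone. For Ccl12 the mix alone gave a log2 ratio of -0.21 and the levels alone 0.58, from means. Its levels alone gave 236.4 to 511.4 CPM over the libraries, the lowest below the baseline of 248.8 CPM. Small gates carry weight in these swaps, such as 101 baseline reparative-like cells and 103 to 118 infarct resident-like cells per library.

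**Figure D2:**
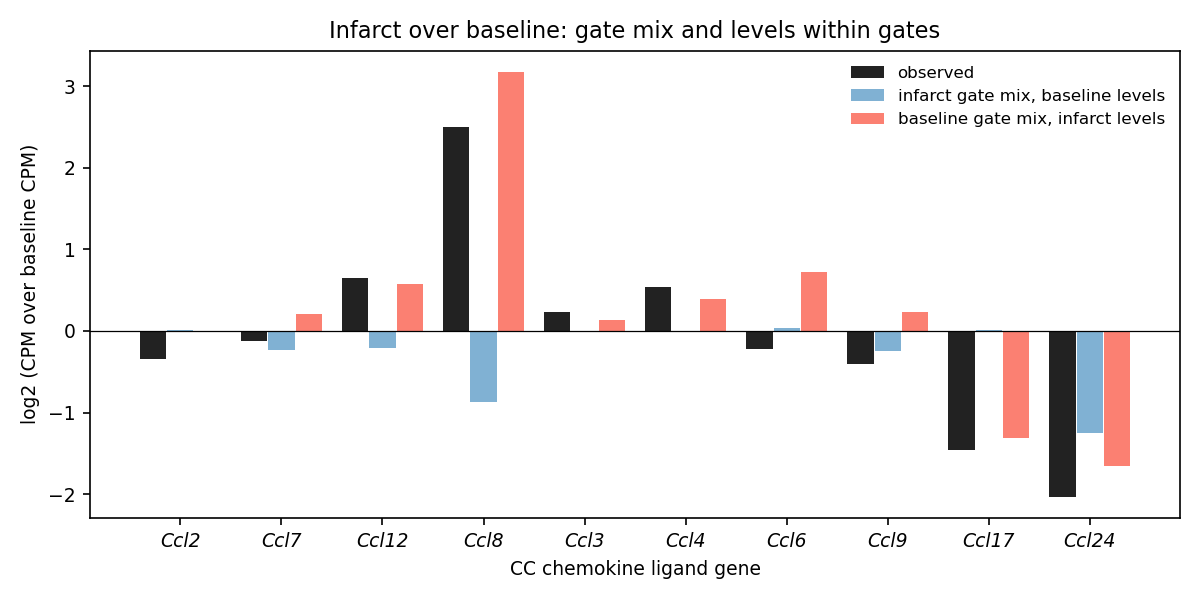
Log2 ratio to the baseline CPM for each ligand: as observed (black), with the infarct gate mix and baseline levels (blue), and with the baseline gate mix and infarct levels (red). For Ccl8 the blue bar is below 0 at -0.87 and the red bar is at 3.17, and for Ccl24 both are below 0 at -1.25 and -1.65.

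Within gates, the same 2-fold rule was applied to each gate with at least 20 cells in all 4 libraries, which left 12 gates. Of the pairs of ligand and gate, 21 were higher and 13 lower in infarcts, where 3.47% and 7.27% of all 91755 pairs of gene and gate were. Of the 21, 9 were Ccl8 pairs, and of the 13, 4 were Ccl24 pairs. They include Ccl8 in B-cell-like cells, where baseline held 0 UMIs and no ratio is given. These pairs rest on the same 4 libraries and are not independent of each other.

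The main comparison asked which myeloid gates held more or less of each ligand within the infarct libraries. Each gate was set against all other gated cells of the same library, with edgeR's quasi-likelihood test on summed counts, Benjamini-Hochberg adjustment over all genes and a threshold of 0.01. All 140 pairs of ligand and gate passed the low-count filter. Of these, 34 (24.3%) were higher, where 9.46% of all 182085 pairs of gene and gate were, and 75 (53.6%) were lower, where 9.94% were. In 33 of the 34 and 68 of the 75, all 3 libraries lay on the side of the call. Without the library block the test called 40 pairs, 10 higher and 30 lower. The 14 tests share cells, so that a gene high in a large gate is pulled lower in the others.

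**Figure D3:**
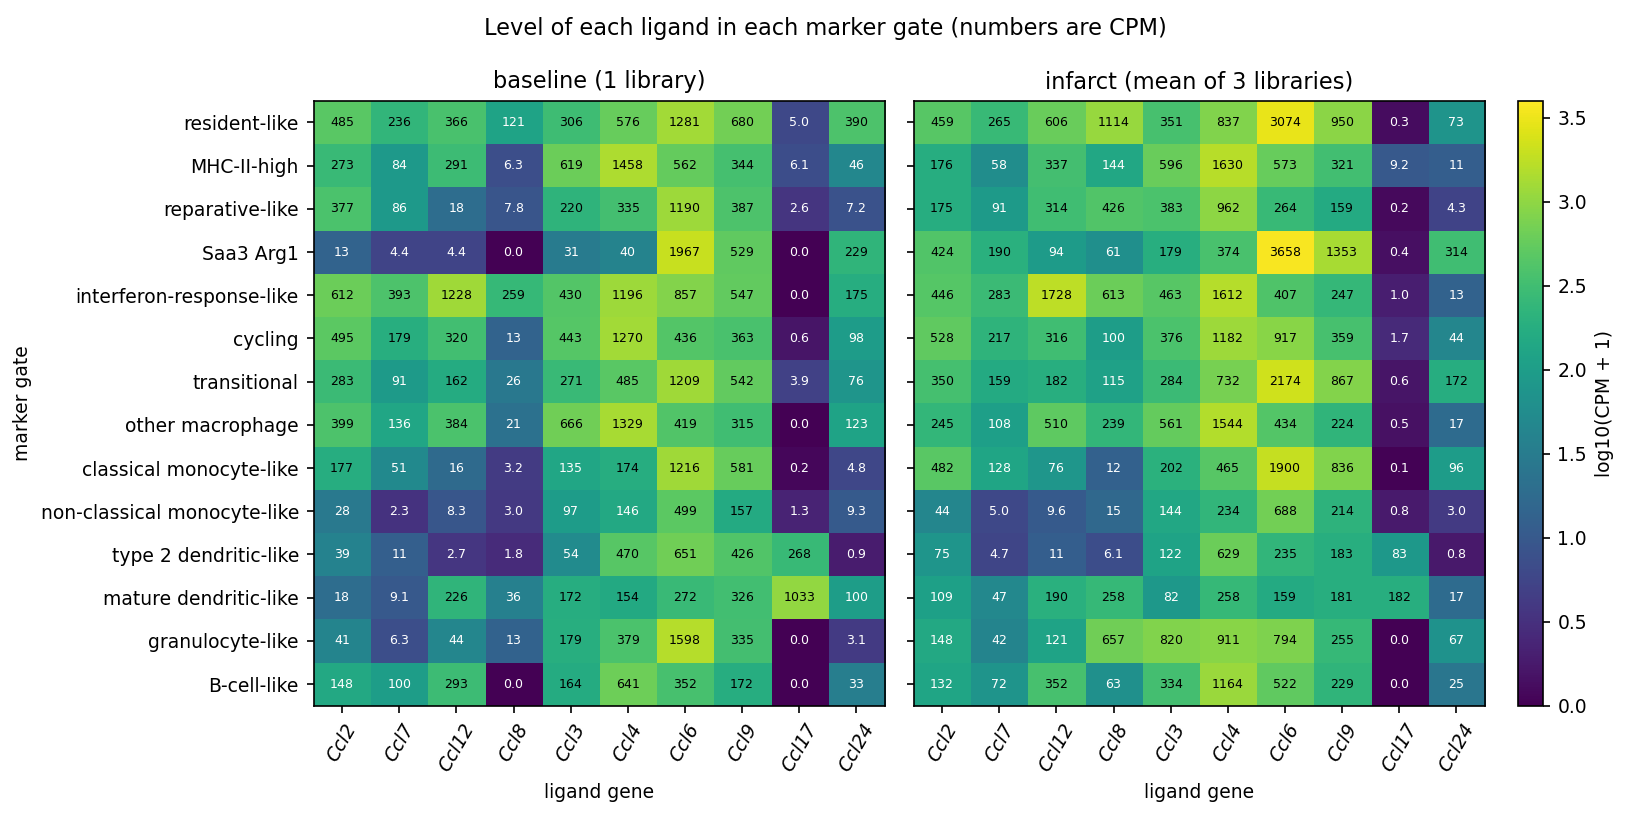
Level of each ligand (columns) in each tested marker gate (rows) at baseline (left, 1 library) and in infarcts (right, mean of 3 libraries), with the CPM printed in each cell and coloured as log10(CPM + 1). In infarcts Ccl12 peaks in the interferon-response-like row, Ccl8 in the resident-like row, Ccl6, Ccl9 and Ccl24 in the Saa3 Arg1 row and Ccl17 in the dendritic rows, and the baseline values of the Saa3 Arg1 and mature dendritic-like rows come from 16 and 10 cells.

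Ccl8, of the monocyte chemoattractant group, was highest in resident-like cells of the infarct. It read 1252, 1202 and 888.0 CPM there, all far above the other gated cells, with a log2 fold change of 2.04 ± 0.12 (SE, adjusted p = 2.3e-22, higher in 3 of 3 libraries). These gates held 103 to 118 cells per library, and their Lyve1 (399.9 CPM) and Cd163 (307.9 CPM) were lower than in the baseline gate (1162 and 1041 CPM). Ccl8 was also higher in interferon-response-like cells, at 493.7, 965.3 and 381.0 CPM (1.41 ± 0.05, adjusted p = 4.9e-12), and in reparative-like cells, at 331.2, 712.8 and 233.4 CPM (1.09 ± 0.04, adjusted p = 6.2e-06). In all 3 of these gates every library was above the rest of its cells. The reparative-like gate gave 51.0 ± 5.1% of all infarct Ccl8 UMIs (SD, n = 3), while the resident-like gate gave 5.25 ± 2.50% in infarcts and 80.1% at baseline.

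Against baseline, Ccl8 was higher within every macrophage gate compared. In resident-like cells it went from 121.2 CPM (interval 116.6 to 125.9) to 1114 ± 197 CPM, a log2 ratio of 3.20. In reparative-like cells it went from 7.84 CPM (4.05 to 13.7, from 12 UMIs) to 426 ± 253 CPM, and in MHC-II-high cells from 6.34 to 149.3, 219.3 and 62.7 CPM. No infarct library overlapped baseline in these gates. The log2 ratio in reparative-like cells was 5.76, 5.17 without infarct 2 and 5.16 with 1 marker more per gate. It was 1.24 in the interferon-response-like gate, where baseline was already at 259.2 CPM.

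**Figure D4:**
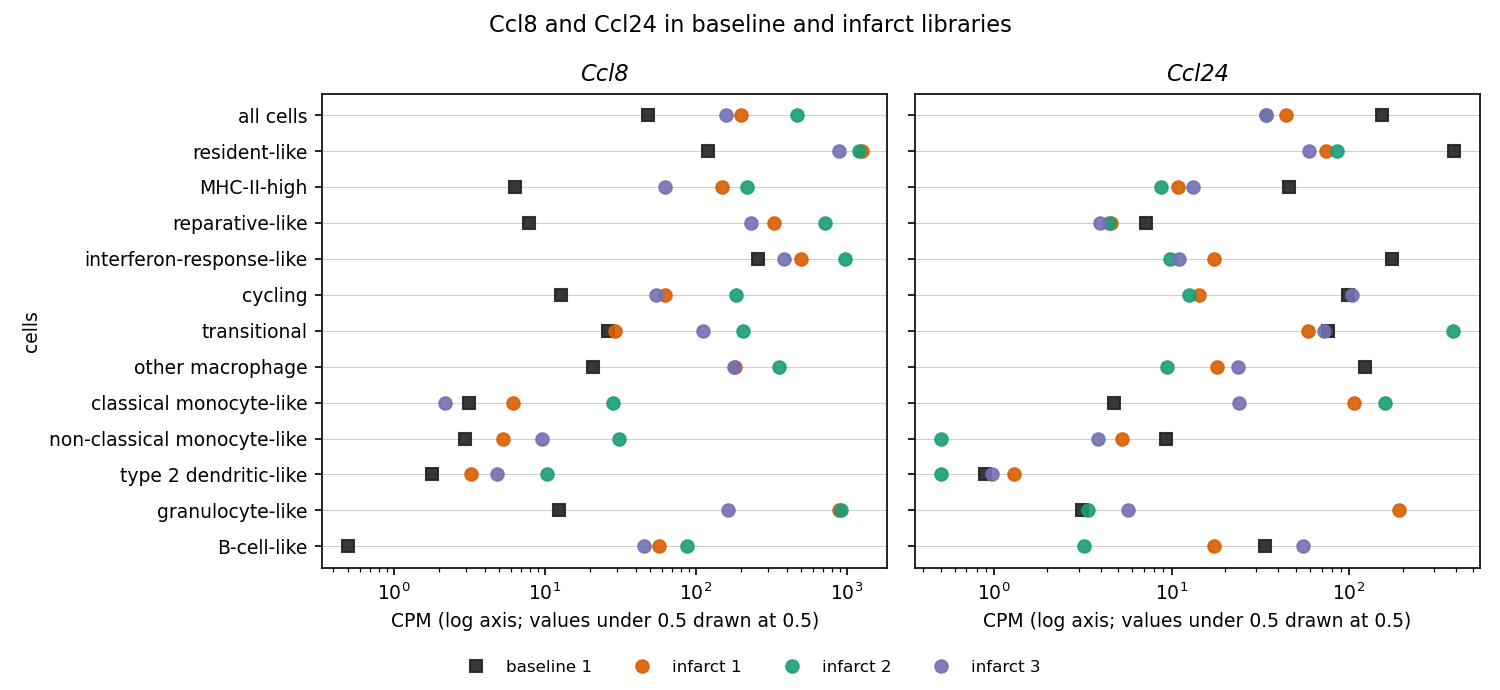
CPM of Ccl8 (left) and Ccl24 (right) on log axes in all cells and in each gate with at least 20 cells in all 4 libraries, with baseline as black squares and the infarct libraries as coloured circles. Ccl8 circles lie to the right of the square in every macrophage gate, and Ccl24 circles lie to the left in the resident-like, MHC-II-high, interferon-response-like and other macrophage gates.

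Ccl8 was lower in the monocyte-like gates and in type 2 dendritic-like cells. It read 6.22, 28.2 and 2.19 CPM in classical monocyte-like cells (-4.66 ± 0.21, adjusted p = 3.7e-07) and 3.25, 10.4 and 4.85 CPM in type 2 dendritic-like cells (-5.59 ± 0.13, adjusted p = 5.2e-14). Every library of both gates lay far below the other cells. Mature dendritic-like cells read 440.4, 68.9 and 265.2 CPM and did not pass the test (adjusted p = 0.72). They were called lower without infarct 1 (-0.76) and with 1 marker more per gate (-1.56). The Ccl8 call in the granulocyte-like gate, at 888.2, 919.6 and 164.4 CPM, was not stable. Its log2 fold change of 0.97 ± 0.14 (adjusted p = 1.5e-10) held in 2 of 3 libraries, fell to 0.41 without infarct 1 and no longer passed, and was negative when cells were thinned. That gate also held 1689 CPM of the macrophage gene C1qa, against 5224 CPM elsewhere, and the part this played was not tested.

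Ccl12, a rodent Ccr2 ligand, was highest in interferon-response-like cells. In that gate (Ifit1, Ifit3, Rsad2, Isg15 and others) it read 1424, 2159 and 1600 CPM, with a log2 fold change of 2.68 ± 0.05 (adjusted p = 8.6e-15, 3 of 3). The 3 libraries did not overlap those of any other gate. The same gate stood at 1228 CPM at baseline (interval 1166 to 1292), the highest of the baseline gates, and it supplied 29.6 ± 5.6% of infarct Ccl12 UMIs from 5.39 ± 1.91% of cells. Ccl12 was lower in Saa3 Arg1 macrophages, at 72.8, 107.1 and 102.0 CPM (-2.17 ± 0.13, adjusted p = 1.1e-07), and in classical monocyte-like cells, at 48.0, 129.3 and 51.8 CPM (-2.48 ± 0.11, adjusted p = 3.3e-07, and -3.32 with 1 marker more per gate). It was close to 0 in non-classical monocyte-like and type 2 dendritic-like cells, at 9.60 ± 4.40 and 11.1 ± 3.8 CPM.

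Against baseline, the largest difference of Ccl12 within a gate was in reparative-like cells. It read 18.3 CPM there at baseline (interval 12.1 to 26.4, from 28 UMIs of 101 cells) and 280.7, 409.8 and 251.6 CPM in infarcts, a log2 ratio of 4.10. That baseline gate also differed in its markers from the infarct gate, with 2126 against 6232 CPM of C1qa, 1276 against 361.5 CPM of Gpnmb and 2648 against 1141 CPM of Fabp5, and the part of this in the infarct and baseline ratios of reparative-like cells was not tested. Classical monocyte-like cells went from 16.4 to 76.3 ± 45.9 CPM, a log2 ratio of 2.22 that was 1.61 without infarct 2 and 1.44 with 1 marker more per gate. In resident-like cells, the infarct libraries lay on both sides of the baseline value of 365.7 CPM, at 243.8, 910.4 and 665.0 CPM.

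Ccl7, which acts on several receptors including Ccr2, was higher in 4 gates. It read 203.1, 450.2 and 195.9 CPM in interferon-response-like cells (1.61 ± 0.15, adjusted p = 8.6e-07) and 269.0, 217.2 and 310.2 CPM in resident-like cells (1.16 ± 0.12, adjusted p = 2.7e-12). Cycling macrophages (0.98 ± 0.12) and Saa3 Arg1 macrophages (0.73 ± 0.12) were higher too, the latter not when 1 marker more was required (0.11). All 3 libraries were on the higher side in the 4 gates. Ccl7 was lower in MHC-II-high cells, at 72.1, 55.2 and 46.8 CPM (-1.03 ± 0.10, adjusted p = 8.7e-05), and almost absent from type 2 dendritic-like cells, at 7.46, 3.62 and 2.91 CPM.

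Ccl2, the main Ccr2 ligand, was called higher in 4 gates and lower in 7. It was higher in cycling macrophages, at 617.4, 554.7 and 412.7 CPM (1.14 ± 0.06, adjusted p = 1.3e-06), in classical monocyte-like cells, at 527.4, 530.5 and 387.9 CPM (1.09 ± 0.06, adjusted p = 1.3e-06), and in interferon-response-like cells (1.07 ± 0.10, adjusted p = 6.6e-07). Each of those libraries stood above its other cells, but neighbouring gates in the order of means overlapped one another throughout. The resident-like call (0.79 ± 0.12) fell to 0.42 and did not pass without infarct 3. Ccl2 was lower in reparative-like cells, at 226.5, 177.0 and 122.8 CPM (-0.64 ± 0.11, adjusted p = 0.0039), and this call too was lost without infarct 3 and with 1 marker more per gate. It was also lower in non-classical monocyte-like cells, at 50.2, 64.7 and 17.3 CPM (-2.66 ± 0.17, adjusted p = 5.9e-50). In the reparative-like gate Ccl2 was below its baseline of 377.4 CPM (log2 ratio -1.11, and -0.38 with 1 marker more per gate, which is under 2-fold), and in the classical monocyte-like gate it was above its baseline of 177.0 CPM (1.44).

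Ccl3 and Ccl4, the macrophage inflammatory proteins, followed each other across the gates. Both were higher in MHC-II-high macrophages, Ccl3 at 533.0, 698.5 and 556.9 CPM (0.82 ± 0.03, adjusted p = 3.5e-07) and Ccl4 at 1445, 1889 and 1557 CPM (0.84 ± 0.04, adjusted p = 1.2e-06). Every library was higher than its other cells, and the other macrophage gate was higher for both as well, by 0.45 ± 0.08 and 0.48 ± 0.08, though neither call held with 1 marker more per gate (0.20 and 0.18). Interferon-response-like cells were higher too, by 0.32 ± 0.05 for Ccl3 and 0.71 ± 0.06 for Ccl4. In reparative-like cells Ccl4 was above its baseline of 335.0 CPM, at 970.9, 1140.0 and 775.7 CPM (log2 ratio 1.52). Both were lower in Saa3 Arg1 macrophages (Ccl3 -1.30 ± 0.10, Ccl4 -1.69 ± 0.11), in classical monocyte-like cells (-1.10 ± 0.13 and -1.39 ± 0.16) and in resident-like cells (-0.38 ± 0.10 and -0.58 ± 0.09). The resident-like call of Ccl3 was lost without infarct 1 or infarct 3. Granulocyte-like cells were higher for Ccl3, at 749.7, 541.5 and 1168 CPM (0.84 ± 0.13, adjusted p = 1.5e-08), and lower for Ccl4, although the Ccl3 call was lost without infarct 3 or with 1 marker more per gate and the Ccl4 call without infarct 1 or infarct 3.

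Immediate-early and heat-shock genes, which digestion of tissue can induce, were read in the same gates. Of 11 listed genes, 10 were higher in MHC-II-high cells, where 1307 of 13111 genes were, and 5 were lower in reparative-like cells, where 1892 of 13127 genes were. Other macrophage and interferon-response-like cells each had 4 higher and 0 lower, where Ccl3 and Ccl4 were both higher. Both ligands were lower in the next 7 gates. Saa3 Arg1 cells had 1 higher and 4 lower, mature dendritic-like cells 0 and 9, and transitional and non-classical monocyte-like cells 2 and 4 each. Resident-like cells had 2 and 2, classical monocyte-like cells 4 and 3, and type 2 dendritic-like cells 4 and 1. In cycling cells 9 were lower, with no call for Ccl3 or Ccl4, and neither ligand was called in reparative-like cells. Granulocyte-like cells had 3 higher and 2 lower, with Ccl3 called higher and Ccl4 lower. B-cell-like cells had 0 and 7, with Ccl3 called lower and no call for Ccl4. Over all pairs of gene and gate, 9.46% were higher and 9.94% lower. Their summed level was 8584 ± 480 CPM in MHC-II-high and 6429 ± 374 CPM in reparative-like cells of infarcts (SD, n = 3). Of 10 NF-kB pathway genes, 6 were higher in MHC-II-high cells, among them Nfkbia, Tnfaip3 and Nfkbiz, and 5 were lower in reparative-like cells, beside the same counts over all genes of those gates. Type 2 dendritic-like cells had 8 higher (2255 of 13077 genes) and mature dendritic-like cells 6 (1319 of 12872), where Ccl3 and Ccl4 were lower. Saa3 Arg1 cells had 6 lower (1407 of 13083), where both ligands were lower too. Both ligands were higher in interferon-response-like cells, with 0 NF-kB genes called, and in other macrophage cells, with 2 higher. In all cells the immediate-early sum was 9628 CPM at baseline and 6603 to 7350 CPM in infarcts. The part of digestion in these levels was not tested.

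Ccl6 and Ccl9, ligands of Ccr1 made by rodents, had their highest infarct means in Saa3 Arg1 macrophages, although in infarct 1 resident-like cells read higher for both. Ccl6 read 3444, 3817 and 3712 CPM in Saa3 Arg1 macrophages (Saa3, Arg1, Marco, Slpi, Thbs1 and Fn1), with a log2 fold change of 2.62 ± 0.20 (adjusted p = 9.3e-07). Ccl9 read 1364, 1677 and 1019 CPM in the same gate (2.16 ± 0.18, adjusted p = 2.2e-06). Both were also higher in transitional cells that held monocyte markers and C1q (1.57 ± 0.09 and 1.33 ± 0.08) and in classical monocyte-like cells (1.46 ± 0.15 and 1.37 ± 0.12). All 3 libraries were higher in each of these gates.

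In resident-like cells Ccl6 and Ccl9 were higher than in other cells, but their levels varied widely between hearts. Ccl6 read 4967, 639.9 and 3616 CPM there and Ccl9 read 1680, 276.4 and 892.9 CPM, with infarct 2 far below the others for both. The calls were 1.54 ± 0.13 (adjusted p = 1.7e-15) and 1.06 ± 0.12 (adjusted p = 2.2e-10), the former 2.27 with 1 marker more per gate, and that of Ccl9 was 0.81 and did not pass without infarct 3. Infarct 2 also had the lowest Ccl6 and Ccl9 in all cells and the fewest Saa3 Arg1 cells, 1.33% against 11.3% and 6.77%.

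Reparative-like cells were lower for both. Ccl6 read 308.1, 231.1 and 251.5 CPM (-1.84 ± 0.18, adjusted p = 0.00024) and Ccl9 read 185.7, 137.1 and 154.9 CPM (-1.37 ± 0.13, adjusted p = 0.00023), with all libraries lower than their other cells. The baseline cells of this gate read 1190 CPM of Ccl6 (interval 1136 to 1246) and 387.2 CPM of Ccl9 (356.7 to 419.7). The log2 ratio of infarct to baseline was -2.18 and -1.28, and no infarct library overlapped baseline. In interferon-response-like cells the ratios were -1.07 and -1.15, and in type 2 dendritic-like cells -1.47 and -1.22.

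Ccl24, the eotaxin, was found in different gates at baseline and in infarcts. At baseline the resident-like gate read 390.3 CPM (interval 382.0 to 398.7) and gave 81.9% of all Ccl24 UMIs. In infarcts the Saa3 Arg1 gate read 222.8, 511.3 and 209.0 CPM, with a log2 fold change of 3.69 ± 0.16 (adjusted p = 1.1e-08, 3 of 3). It gave 42.6 ± 18.2% of Ccl24 UMIs there. Resident-like cells of infarcts read 74.3, 85.9 and 59.5 CPM, still above other infarct cells (0.86 ± 0.14, adjusted p = 2.9e-06) but well below the same gate at baseline, with a log2 ratio of -2.41. With 1 marker more per gate these values were 2.22 and -1.29.

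Transitional and classical monocyte-like cells gave 12.3 ± 11.9% and 12.1 ± 9.3% of infarct Ccl24 UMIs. Reparative-like cells read 4.55, 4.47 and 3.97 CPM (-3.54 ± 0.07, adjusted p = 4.5e-07), the lowest of the macrophage gates in every library. Ccl24 was below baseline in MHC-II-high (46.0 to 10.9 ± 2.3 CPM), interferon-response-like (175.3 to 12.8 ± 4.1 CPM) and other macrophage cells (122.8 to 17.1 ± 7.3 CPM). In classical monocyte-like cells it was above, at 106.1, 158.5 and 24.1 CPM against 4.77 CPM. Transitional cells read 59.0, 385.2 and 71.8 CPM, with infarct 2 far above the others. Their log2 fold change of 1.97 ± 0.46 was 0.74 without infarct 2 and 2.88 without infarct 1, both of which passed, and 2.35 without infarct 3, which did not.

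Ccl17, the Ccr4 ligand, was highest in the dendritic-like gates. Mature dendritic-like cells (Fscn1, Cacnb3, Il4i1 and others) read 102.1, 98.4 and 346.8 CPM, with a log2 fold change of 5.44 ± 0.20 (adjusted p = 1.8e-153), and type 2 dendritic-like cells read 98.7, 20.2 and 130.4 CPM (4.88 ± 0.27, adjusted p = 9.4e-10). All libraries of both gates were higher than their other cells. The type 2 dendritic-like value was 4.25 without infarct 1, 5.47 without infarct 3 and 3.79 with 1 marker more per gate, and it passed in all 3. These gates gave 20.1 ± 13.8% and 37.2 ± 12.3% of infarct Ccl17 UMIs. MHC-II-high cells read 1.83, 0.43 and 25.4 CPM, where infarct 3 alone was high and gave 42.5% of its Ccl17 UMIs from that gate. Against baseline, type 2 dendritic-like cells went from 268.2 CPM (247.2 to 290.6) to 83.1 ± 56.7 CPM. B-cell-like and granulocyte-like cells held no Ccl17 UMI in any library.

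The share of cells with a ligand UMI was compared after thinning each cell to 2000 UMIs, which left out 672 to 1247 cells per library. Ccl8 was found in 9.08% of resident-like cells at baseline and 40.8 ± 5.6% in infarcts, with 2.18 and 5.85 ± 0.96 UMIs per positive cell. Both the share and the count per positive cell were thus higher. In reparative-like cells the Ccl8 share was 1.98% at baseline and 21.2 ± 6.8% in infarcts. Ccl24 was found in 35.9% of resident-like cells at baseline and in 7.34%, 14.6% and 11.2% in infarcts. Before thinning, the shares over all cells were 6.75% at baseline and 17.6% to 31.4% in infarcts for Ccl8, and 24.4% and 3.33% to 8.21% for Ccl24.

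The same shares were read in gates outside the macrophages. B-cell-like cells held Ccl8 in 0% of 108 thinned cells at baseline, which allows a share of up to 2.78%. In infarcts they held it in 3.23% to 5.77%. Their Ccl24 share was 1.85% at baseline and 1.92% to 3.23% in infarcts, and their Ccl4 share was 15.7% and 36.6% to 64.5%. The B-cell-like gate held 3746 CPM of C1qa in infarcts, against 5221 CPM in other gates, and its part in these shares was not tested. Type 2 dendritic-like cells of infarcts held Ccl8 in 0.33% to 1.55%, Ccl7 in 0.33% to 0.52% and Ccl12 in 1.31% to 2.07% of thinned cells. The B-cell-like gate is not taken to lack Ccl3 or Ccl4 expression, and the source of its counts was not tested. Shares of either ligand near those of that gate are therefore not read as particular to macrophages. For Ccl4 this covers the macrophage gates together, at 45.3%, 54.2% and 43.7% in infarcts, within the B-cell-like range. MHC-II-high cells (50.3%, 59.7% and 50.6%) lay within it too. In the B-cell-like gate Ccl4 was not called lower than in other cells by edgeR (-0.15, adjusted p = 0.15). The Ccl4 shares that follow carry this limit.

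For the neighbouring pairs named next, a ligand was found more often in cells that held the other gene than in cells that lacked it. In the macrophage gates of infarcts, thinned cells with Ccl3 held Ccl4 in 75.7 ± 3.9% and cells without Ccl3 in 33.8 ± 4.8% (SD, n = 3). Cells with Ccl2 held Ccl7 in 24.2 ± 1.3% against 4.40 ± 0.92%, and cells with Ccl6 held Ccl9 in 45.3 ± 14.5% against 20.6 ± 1.1%. Ccl24 was found with Ccl6, a gene of another chromosome, in 81.7 ± 10.5% against 37.1 ± 7.2%. Within the Saa3 Arg1 gate alone the Ccl6 shares were 96.4 ± 3.3% and 86.4 ± 2.0%. In the 4 pairs over all macrophage gates the ranges of the libraries did not overlap. Ccl8 was no more frequent in cells with Ccl24, at 10.9 ± 5.4% against 15.2 ± 5.5%. Cells with its neighbour Ccl12 held Ccl8 in 23.2 ± 5.4% against 12.0 ± 4.7% over all macrophage gates. Within the resident-like gate, where Ccl8 was highest, these shares were 40.7 ± 2.1% and 41.4 ± 8.9%.

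Over single cells of the macrophage gates, the correlation of log2(UMIs + 1) was 0.58 for Ccl3 and Ccl4, 0.54 for Ccl6 and Ccl9 and 0.42 for Ccl2 and Ccl7, as means of the 3 infarct libraries. At baseline the same pairs stood at 0.57, 0.39 and 0.49. The highest value for Ccl8 in infarcts was 0.15, with Ccl12, the gene next to it. These are descriptions over cells that share a library, at an equal number of UMIs.

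**Figure D5:**
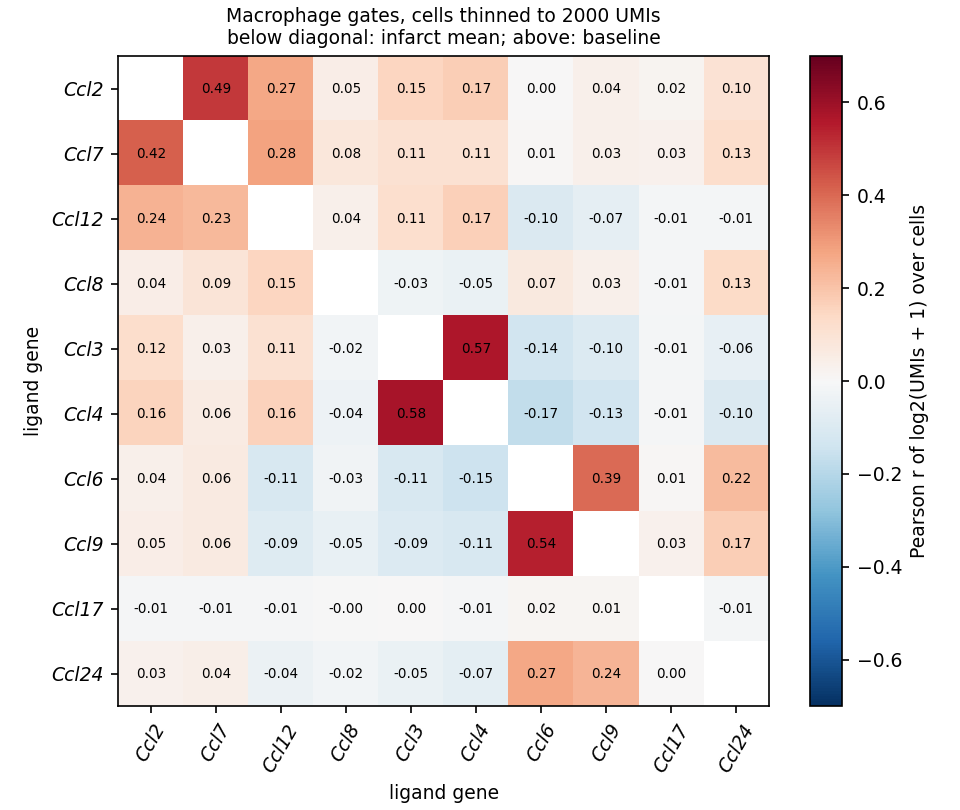
Pearson correlation of log2(UMIs + 1) between the ligands over cells of the macrophage gates, each cell thinned to 2000 UMIs, with the mean of the 3 infarct libraries below the diagonal and baseline above it. The highest squares are Ccl3 with Ccl4, Ccl6 with Ccl9 and Ccl2 with Ccl7 on both sides of the diagonal, and Ccl6 with Ccl4 is the lowest at -0.15 in infarcts.

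Cells also differed in how many of the 10 ligands they held. Resident-like cells of infarcts held 3.35 ± 0.29 ligands after thinning, interferon-response-like cells 2.88 ± 0.17 and Saa3 Arg1 macrophages 2.87 ± 0.18. Reparative-like cells held 1.95 ± 0.22, with none in 15.7 ± 4.0% of cells, and type 2 dendritic-like cells held 0.98 ± 0.05, with none in 39.4 ± 1.9%. The counts were uneven between cells. The 1% of cells with the most UMIs of a ligand held 59.4% to 90.5% of Ccl24 UMIs in infarcts and 23.7% at baseline, but 10.5% to 19.9% of Ccl9 UMIs in infarcts and 9.86% at baseline.

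Across the 14 gates, the gene most like a ligand was sought among 4706 genes with at least 50 CPM in a gate, by the correlation of log2(CPM + 1) of infarct means. Ccl6 was most like Ms4a8a (r = 0.98), Ccl9 like the signalling adaptor Dok2 (0.97) and Ccl17 like Syngr2 (0.95). Ccl3 was most like Ctbs (0.94), Ccl12 like Ang (0.93) and Ccl8 like the iron exporter gene Slc40a1 (0.92). Ccl2 was most like Carhsp1 (0.92), Ccl24 like Lrg1 (0.91) and Ccl7 like Cndp2 (0.90). With 14 gates and 4706 genes these are descriptions.

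Receptors for the ligands were read in the same gates. Of 14 CC receptors and atypical receptors, 4 reached 10 CPM in all cells, and none differed by the 2-fold rule between infarct and baseline. Ccr2 was higher in classical monocyte-like (1728 ± 134 CPM), transitional (1283 ± 234 CPM), MHC-II-high and type 2 dendritic-like cells, and lower in reparative-like cells (276.6 ± 56.9 CPM). Ccr1, on which Ccl6 and Ccl9 act, was higher in granulocyte-like (531.7 ± 108.8 CPM), Saa3 Arg1 (262.5 ± 25.8 CPM), classical monocyte-like, transitional and resident-like cells. Ccr3, the Ccl24 receptor, was at 0.66 ± 0.30 CPM and Ccr4, the Ccl17 receptor, at 0.01 ± 0.02 CPM in all infarct cells.

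Of 9 other CC ligands with a single row, 2 reached 10 CPM and Ccl5 was the only one to pass the 2-fold rule. Ccl5, a chemoattractant of T cells and monocytes, stood at 14.7 CPM at baseline and 117.3, 102.4 and 90.5 CPM in infarcts, a log2 ratio of 2.81. It was higher in mature dendritic-like cells, at 5609 ± 947 CPM (6.39 ± 0.14), and in interferon-response-like cells, at 185.0 ± 71.6 CPM (1.02 ± 0.19, adjusted p = 0.001). Ccl22, the other Ccr4 ligand, shared the gates of Ccl17, at 440.5 ± 149.0 CPM in mature dendritic-like and 20.5 ± 5.5 CPM in type 2 dendritic-like cells. Ccl19 and Ccl21a were not used because more than 1 row carries each name.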

How the data were processed

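Single-cell libraries (10x Genomics 3' chemistry) were aligned and counted by the authors with Cell Ranger against the mm10 reference, and the deposited matrices hold raw UMI counts per gene and barcode. The matrix header names Cell Ranger 3.1.0. The deposited UMI counts were used unchanged; cells with 500 to 40000 UMIs and more than 200 genes were kept. The ligands, marker lists and pathway lists were chosen with earlier results of these data known. Marker numbers per gate were set from the markers' own distributions.

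All 10 ligands were named, with pathway genes from lists, counted whole and named where they passed a test, and the gene most like each ligand. Some results that the rule would name are not reported here. Counts were summed by gate and library. Each gate was compared with all other gated cells of the 3 infarct libraries with edgeR 4.0.16 in R 4.3.3, scaled by TMM and with the library as a block, since both sums of a library come from the same heart, which pairs them. The threshold was an adjusted p of 0.01. On simulated counts, 80% of genes changed by 1 on the log2 scale and 96% changed by 2 were recovered for the reparative-like gate (13020 genes). For the mature dendritic-like gate (12637 genes) the values were 37% and 56%. Of the unchanged genes, 8 and 3 were called in these gates. The simulated means did not differ between hearts except in depth. Each infarct library is 1 heart and the baseline is 1 pool, so infarct against baseline has no test. The edgeR test takes part of its spread from all genes. A small p-value in a small gate is thus not a measure of how closely the 3 hearts agreed. Ccl2 in mature dendritic-like cells passed at -1.26 (adjusted p = 9.6e-11) with 1 of 3 libraries higher, and was -4.07 without infarct 1. Doublets were kept; in an alternative, the cells with the highest Scrublet scores were removed, because its automatic threshold marked almost none. Other alternatives were DESeq2 1.42.0, other filters, scalings and gates, thinning of cells to 2000 UMIs, and leaving out each library. No columns of authors' comparisons were present.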

Additional observations from a re-analysis of the deposited data

How the results depend on the processing

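Of the gate tests, 109 pairs of ligand and gate were called in the fit as reported. Leaving out each infarct library gave 104 to 118 calls, 33 to 37 higher and 71 to 81 lower, and the other settings that kept the library block gave 87 (DESeq2's Wald test) to 119 (no filter on low counts). Without the block that pairs the 2 sums of each heart, 40 pairs were called, 10 higher and 30 lower. Apart from that setting, 24 of the 34 higher and 51 of the 75 lower calls were kept in every alternative that tested them. A few called pairs were not tested after thinning, and these do not count as lost there.

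In 4 cases a call changed sign, and no value with the other sign passed the test. Ccl8 in granulocyte-like cells was -0.50 with thinned cells and -0.30 with 1 marker more per gate, Ccl17 in interferon-response-like cells was 0.51 and Ccl24 in other macrophages 0.011 with 1 marker more. The cause was not tested.

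In all cells, the 2-fold rule gave 1 lower ligand in place of 2 with thinned cells and when every cell had equal weight, and 1 to 2 when a library was left out, for 2 to 3 ligands in all. The ligand lost was Ccl17. Within gates the rule gave 34 pairs as reported, 32 to 39 when a library was left out and 32 to 42 over all alternatives. The Ccl24 pair in granulocyte-like cells rested on infarct 1, with a log2 ratio of 4.42, and 0.53 without it. Gates of under 120 cells per library, the resident-like gate of infarcts among them, and Ccl17, found in 31 to 90 cells per library, have limited precision, and infarct against baseline rests on 1 baseline library.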
